A study of Arabidopsis thaliana with 6 samples.

Results

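SWEET1, SWEET11, SWEET17 and SAG29 are 4 genes of the SWEET family of plant sugar transporters, and SAG29 is also called SWEET15. Each was found by its gene symbol among the probe sets that the platform's gene table pairs with a single gene, after symbols were updated through RefSeq. Each had 1 such probe set, so 4 of 13513 single-gene probe sets are described here. Their loci are AT1G21460 for SWEET1 (probe set 260876_at), AT3G48740 for SWEET11 (252327_at), AT4G15920 for SWEET17 (245524_at) and AT5G13170 for SAG29 (245982_at). The genes were picked with their difference between the genotypes already known, so that difference is given for them as a description, and no test of it is used.

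The study compared Arabidopsis thaliana carrying the 35S-PaWRKY1 transgene with empty-vector control plants carrying pCAMBIA 1302, with 3 Affymetrix arrays for each genotype. The 35S promoter of cauliflower mosaic virus drives expression in most tissues, and WRKY proteins are plant transcription factors, many of them active in defence and senescence. In both groups the RNA came from whole seedlings, shoots and roots together, that were 7 days old after 2 days of seed vernalization and grew on full-strength MS medium. The labels call the 3 samples of a group biological replicates, without saying whether they were separate lines or sowings, so the spread given is that between these samples. The transgene was not analysed here.

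SWEET proteins let sugars cross a membrane down their concentration gradient, and plants use them to hand sugars from cell to cell. In Arabidopsis the family falls into 4 clades. Members of clade III, which holds SWEET11 and SAG29, carry mainly sucrose across the plasma membrane, while clades I and II favour hexoses and clade IV acts on the vacuole membrane. SWEET11 works beside its close relative SWEET12 in leaf phloem, where both release sucrose for loading into the transport stream. SAG29 was named as a senescence-associated gene, and its transcript is known to accumulate in ageing leaves and under osmotic stress.

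The values were taken to be log2, and for each probe set the mean of its 3 control arrays is 0. They therefore give differences from the control mean and no expression level, and the genes cannot be ordered by abundance. For the same reason the tissue label could not be checked against marker levels. In whole seedlings, a lower transcript in each cell and fewer cells that hold the transcript cannot be told apart. Over all probe sets control replicate 3 lay farthest out on the first principal component, which held 41.7% of the variance. It scored 40.73, and 35S-PaWRKY1 replicate 3 came next at 12.84, while the remaining 4 arrays scored between -22.42 and -2.734. The 35S-PaWRKY1 array was nearer to the highest of those 4 than to control replicate 3. Values without both replicate 3 arrays are given for each of the 4 genes.

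SWEET1, SWEET17 and SAG29 lay above control on every 35S-PaWRKY1 array, and SWEET11 lay below control on every one. The groups did not overlap for 4 of 4 genes, where 14.5% of all 22746 probe sets tested had groups that did not overlap, 5.34% with 35S-PaWRKY1 above and 9.17% with it below. With limma and adjustment by Benjamini-Hochberg over the whole table, 0 of 4 had an adjusted p under 0.05, where 0.0308% of all probe sets did. At an unadjusted p under 0.05 the count was 4 of 4, where 8.01% of all probe sets passed. The 4 genes were chosen on this contrast, so nothing is read from these counts.

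**Figure D1:**
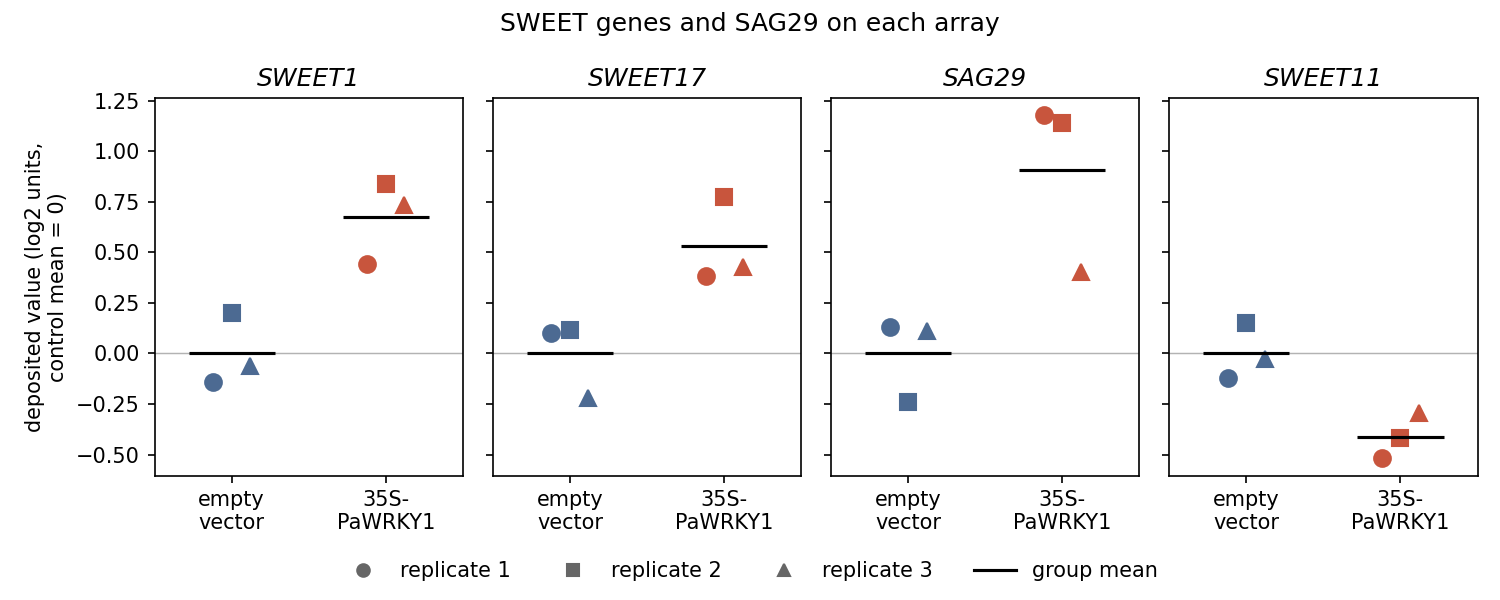
Deposited value in log2 units, with the control mean at 0, for SWEET1, SWEET17, SAG29 and SWEET11 on each of the 6 arrays; symbols mark the replicate number and black bars the group means. In each panel the 3 points of 35S-PaWRKY1 lie on one side of the 3 control points, and the replicate 3 array of 35S-PaWRKY1 lies well below the other 2 for SAG29.

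SWEET1 encodes a glucose carrier of the plasma membrane. Its values in empty-vector replicates 1, 2 and 3 were -0.14, 0.20 and -0.06, and in 35S-PaWRKY1 replicates 1, 2 and 3 they were 0.44, 0.84 and 0.74. The lowest 35S-PaWRKY1 array was 0.24 above the highest control array. The difference between the group means was 0.67 (SE 0.14, n = 3 per group), which would be 1.59-fold on a log2 scale. Taken between arrays of the same replicate number, SWEET1 differed by 0.58, 0.64 and 0.80. Without both replicate 3 arrays the difference was 0.61. By absolute difference, 1.56% of all probe sets lay further from 0.

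SWEET17 encodes a fructose carrier of the vacuole membrane that is active in roots and leaves. Its control values were 0.10, 0.11 and -0.22, and its 35S-PaWRKY1 values were 0.38, 0.78 and 0.43. Replicate 2 was the highest array for SWEET17 in both groups, and replicate 3 was the lowest of the controls. The means differed by 0.53 (SE 0.15, n = 3 per group), or 1.44-fold on that scale. The differences between same-numbered arrays were 0.28, 0.66 and 0.65. Without both replicate 3 arrays the difference of SWEET17 was 0.47. Of all probe sets, 2.84% had a larger absolute difference.

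SAG29 encodes a sucrose carrier of the plasma membrane that acts with SWEET11 and SWEET12 in seed filling. It had the largest difference of the 4 genes. The control values were 0.13, -0.24 and 0.11, and the 35S-PaWRKY1 values were 1.18, 1.14 and 0.40. Replicate 3 of 35S-PaWRKY1 lay 0.27 above the highest control, far closer to the controls than the other 2. The difference between means was 0.91 (SE 0.23, n = 3 per group), or 1.88-fold on that scale, and 0.69% of all probe sets had a larger absolute difference. Between same-numbered arrays SAG29 differed by 1.05, 1.38 and 0.29. The SD of its 35S-PaWRKY1 arrays was 0.44, which 4.22% of all probe sets exceeded, while that of its control arrays was 0.21, which 30.9% exceeded. Without 35S-PaWRKY1 replicate 3 the difference was 1.16, and without both replicate 3 arrays it was 1.22.

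SWEET11 was the member that lay below control. Its control values were -0.12, 0.15 and -0.03, and its 35S-PaWRKY1 values were -0.52, -0.42 and -0.30. The highest 35S-PaWRKY1 array was 0.18 below the lowest control array, the narrowest gap of the 4 genes. The difference of the means was -0.41 (SE 0.11, n = 3 per group), or 1.33-fold lower on that scale, and 5.13% of all probe sets lay further from 0. Same-numbered arrays differed by -0.40, -0.57 and -0.27. Without both replicate 3 arrays the difference of SWEET11 was -0.48. SWEET12, its partner in phloem loading, had no single-gene probe set by this table and was not analysed here.

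Ordered by their difference from control, SAG29 came before SWEET1, SWEET17 and SWEET11. The gaps between neighbours in this order were 0.23, 0.14 and 0.94, beside joint SE of 0.27, 0.20 and 0.18 that treat the genes as independent although they were read on the same arrays. The genes were chosen on these differences, so the gaps are a description and were not tested. The order was not the same on every array: in 35S-PaWRKY1 replicate 3, SAG29 at 0.40 was below SWEET1 at 0.74 and SWEET17 at 0.43.

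Of the 17 SWEET genes of Arabidopsis, 16 were matched to a probe set, all but SWEET12. The 12 that are not described above had 0 calls in either direction in limma over all probe sets, and 2 of them, SWEET4 and SWEET16, had an unadjusted p under 0.05, where 8.01% of all probe sets did. Their median difference was 0.04, against -0.04 over all probe sets, with 7 of 12 above and 5 of 12 below control. The groups did not overlap for 2 of the 12, SWEET13 and SWEET16, where 14.5% of all probe sets had such groups. Since the 4 described genes were taken out of this family with the values known, the remaining 12 are not a fair picture of it either.

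SWEET4, a hexose carrier gene of clade II, had a difference of 0.51 (SE 0.18, adjusted p 0.553 in limma), larger in size than that of SWEET11. Its control values were 0.23, -0.08 and -0.16 and its 35S-PaWRKY1 values 0.84, 0.50 and 0.20, so the groups overlapped. SWEET16, the other gene of clade IV and like SWEET17 a carrier of the vacuole membrane, was at 0.33 (SE 0.13, adjusted p 0.612), and at 0.19 without control replicate 3. Its values were 0.08, 0.19 and -0.27 in controls and 0.39, 0.35 and 0.25 in 35S-PaWRKY1 plants. SWEET16 lay above control on every 35S-PaWRKY1 array but did not pass the test. SWEET17 was chosen on this contrast, so nothing is read about clade IV from the pair.

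In clade III, SAG29 stood at the top of the family and SWEET11 at the bottom. Both were chosen on this contrast, so their places are a description and not a finding on the clade. Between them were SWEET13 at -0.20 (SE 0.09, adjusted p 0.646 in limma) and SWEET14 at -0.11 (SE 0.16, adjusted p 0.903). SWEET9, known from nectar secretion, was at 0.01 (SE 0.08) and SWEET10 at 0.06 (SE 0.09). In clade I, SWEET2, a vacuolar carrier of roots, was at -0.10 (SE 0.23) and SWEET3 at 0.15 (SE 0.29), beside 0.67 for SWEET1. The 35S-PaWRKY1 arrays of SWEET2 ran from -0.57 in replicate 1 to 0.37 in replicate 3, and the control arrays of SWEET3 from -0.64 to 0.64, so the error of both was wide. With single arrays left out, SWEET2, SWEET3, SWEET9 and SWEET14 changed sign. The other clade II genes were AtVEX1, also called SWEET5, at 0.09, SWEET6 at -0.19, SWEET7 at -0.07 and SWEET8, a pollen gene, at 0.14.

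**Figure D2:**
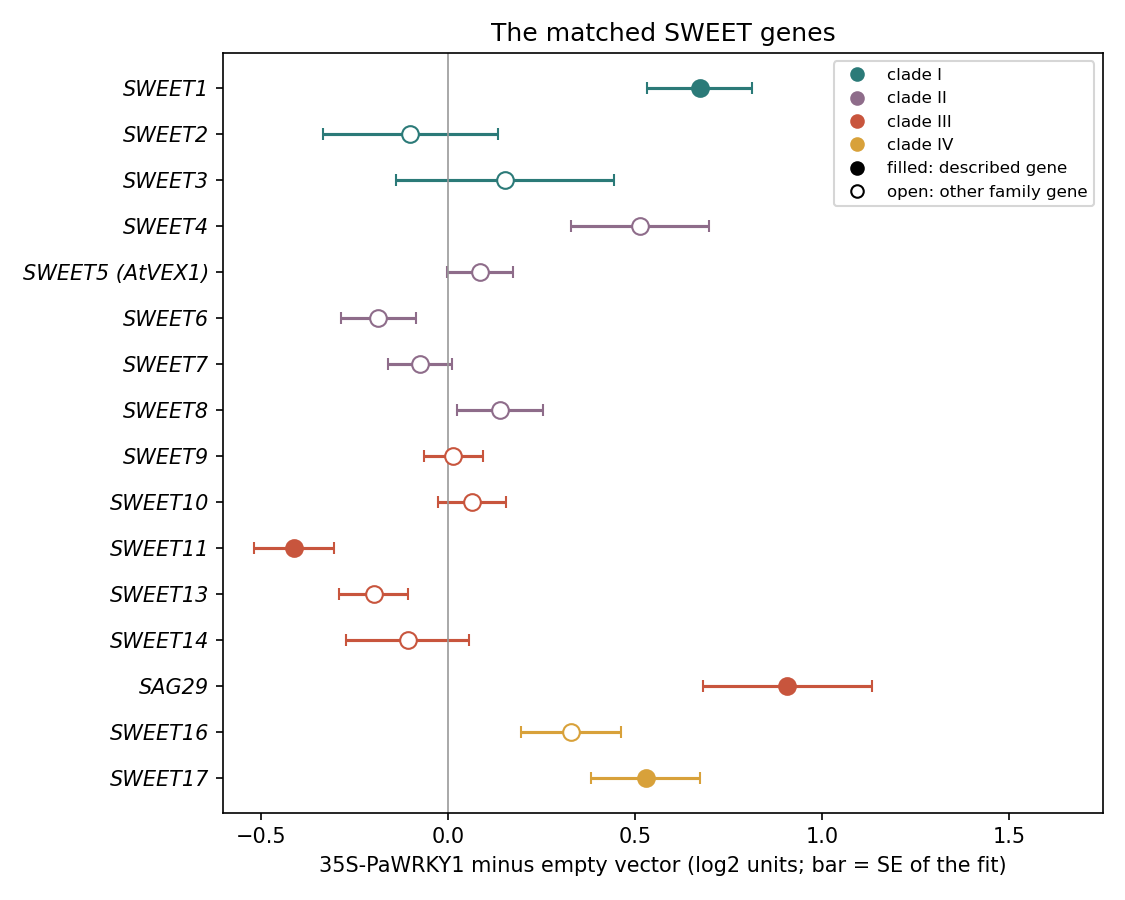
Difference of 35S-PaWRKY1 from empty vector in log2 units for the 16 matched SWEET genes, coloured by clade, with bars of 1 SE of the fit; filled points are the 4 described genes. SAG29 at 0.91 is the highest and SWEET11 at -0.41 the lowest. Both belong to clade III, and both were chosen on this contrast.

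Other sugar carriers could be followed only in part. Of the 14 STP genes, proton symporters that take up hexoses, 4 were matched and 0 passed in either direction. The means of 4 of 4 lay below control, with a median of -0.24, beside -0.04 over all probe sets. STP3 was at -0.19 (SE 0.185), STP8 at -0.32 (SE 0.17) and STP10 at -0.16 (SE 0.11), all with groups that overlapped. STP5 (AT1G34580) at -0.29 (SE 0.10, adjusted p 0.52 in limma) was the single one whose groups did not overlap. Of 16 other sugar and polyol carriers, 6 were matched and 0 passed, with a median of 0.08. The vacuolar sugar importers TMT1, TMT2 and TMT3 were at -0.13, 0.03 and -0.22, and SFP1 and SFP2, of the ERD6-like group, were at 0.28 and 0.15. SFP1 was at 0.13 without control replicate 3, and SFP2 at 0.076 without control replicate 1. None of the 9 sucrose symporter genes and none of the 18 genes of sugar sensing and starvation was matched, so neither list was analysed here.

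Among 22 genes of sucrose synthesis and cleavage, 4 were matched and 0 passed, with a median of 0.05. The highest was AT1G62660 at 0.30 (SE 0.12, adjusted p 0.608) and the lowest cwINV6, of the cell wall invertase group, at -0.16 (SE 0.16), which was -0.0059 without control replicate 3. ATSPS4F, a sucrose phosphate synthase gene, was at 0.10 (SE 0.24).

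The lists nearest to what SAG29 is known for were thinly covered. Of 22 senescence genes other than SAG29, 3 were matched and 0 passed: SAG101 was at 0.13 (SE 0.10), WRKY6 at 0.07 (SE 0.13) and WRKY53 at -0.44 (SE 0.69). For WRKY53, control replicate 1 stood at 1.57 and the other controls at -0.72 and -0.85, and without replicate 1 of the controls its difference was 0.35. Leaving out that array breaks its pair with 35S-PaWRKY1 replicate 1. Between same-numbered arrays WRKY53 differed by -1.14, -0.12 and -0.04, all below 0, with replicate 1 by far the largest in size. With the replicate number as a block its SE was 0.23 and its adjusted p 0.551 in limma. Of 18 genes of abscisic acid and osmotic stress, 2 were matched and 0 passed. COR15A, which encodes a chloroplast protein made in cold and drought, was at 0.89, -0.11 and -0.78 in controls and 2.17, 1.85 and 1.19 in 35S-PaWRKY1 plants. The dehydrin gene COR47 was at 0.17, 0.13 and -0.30 in controls and 1.09, 0.65 and 0.02 in 35S-PaWRKY1 plants. The difference of COR15A was 1.74 (SE 0.44, adjusted p 0.40 in limma), with groups that did not overlap. That of COR47 was 0.59 (SE 0.27, adjusted p 0.646), with groups that overlapped. For SAG29, COR15A and COR47, replicate 3 was the lowest of the 35S-PaWRKY1 arrays. It was also the lowest control for COR15A and COR47, but not for SAG29, where it stood at 0.11. Between same-numbered arrays COR15A differed by 1.28, 1.96 and 1.97 and COR47 by 0.92, 0.52 and 0.32, beside 1.05, 1.38 and 0.29 for SAG29. Any link among these genes was not tested.

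Tissue markers were set beside these values because the carriers are known from different tissues. Of 10 phloem markers 1 was matched, OPS at -0.15 (SE 0.15, adjusted p 0.843). Of 10 root markers 2 were matched, PYK10 at 0.25 (SE 0.18) and EXPA7 at -0.04 (SE 0.14), and their mean value ran from -0.18 to 0.12 in controls and from 0.06 to 0.17 in 35S-PaWRKY1 plants. Of 10 leaf markers 4 were matched, with a median difference of -0.03 and means of -0.09 to 0.05 in controls and -0.06 to 0.01 in 35S-PaWRKY1 plants. None passed the test, and the part of tissue make-up in the values of the 4 carriers was not tested. Over all lists, 38 genes other than the 4 were matched, 0 passed and 5 had an unadjusted p under 0.05.

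**Figure D3:**
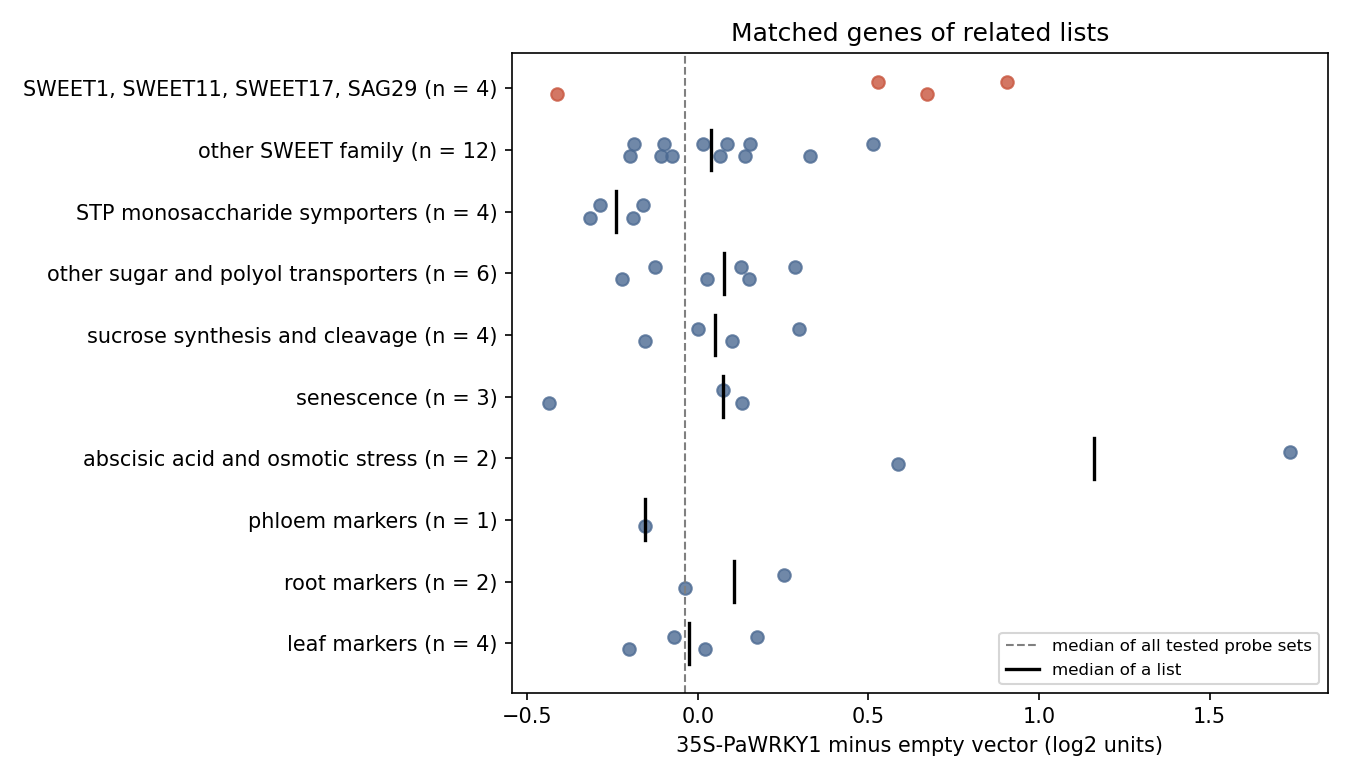
Difference of 35S-PaWRKY1 from empty vector in log2 units, a point for each matched gene; black bars are list medians and the dashed line is the median of all probe sets, -0.04. The 4 matched STP genes all lie below 0, and COR15A at 1.74 lies above SAG29 at 0.91.

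The named genes whose 6 values came closest to each member were found by the root mean square difference over the 6 arrays, among 1579 other single-gene probe sets that have a gene name and not the locus tag alone. This likeness includes the difference between genotypes that chose the members, and is a description. Nearest to SWEET1 were GSTU22, a glutathione transferase gene, at a distance of 0.139, MSRB6, a methionine sulfoxide reductase gene, at 0.146, BETA-VPE, for a vacuolar protease, at 0.168, and the mitochondrial gene nad1 at 0.169. The fifth was SWEET17, at 0.179. The median distance of all probe sets from SWEET1 was 0.545.

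Nearest to SWEET17 were NDB2, for a mitochondrial NADH dehydrogenase, at 0.116, the tetraspanin gene TET3 at 0.121, the transcription factor gene TCP15 at 0.122, the co-chaperone gene Hop2 at 0.127 and DJ1D at 0.131. SWEET1 took rank 20 there, at a distance that includes the genotype difference both genes were chosen for. Nearest to SWEET11 were THIC, of thiamine synthesis, at 0.0719, cICDH, for a cytosolic isocitrate dehydrogenase, at 0.0754, NDP1 at 0.104, the golgin gene ATGRIP at 0.107 and GPT at 0.112.

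For SAG29 the nearest genes were the glutaredoxin gene ROXY2 at 0.185, the wax ester synthase gene WSD1 at 0.193 and the thionin gene THI2.2 at 0.216. The iron-deficiency regulator BHLH101 followed at 0.227 and the glucosidase gene BGLU28 at 0.232. These distances are larger than those for the other members, but so is the median distance of all probe sets from SAG29. That median was 0.737, against 0.545 for SWEET1, 0.459 for SWEET17 and 0.317 for SWEET11. ROXY2 was at 1.43, 1.39 and 0.32 on the 35S-PaWRKY1 arrays and WSD1 at 1.00, 0.90 and 0.16, so both, like SAG29, were lowest in replicate 3. SWEET17 came at rank 34 and SWEET1 at rank 36 of the 1579, at distances of 0.409 and 0.416. Of the 19 nearest genes that are not members, 0 passed in limma, with 19 at an unadjusted p under 0.05, where 8.01% of all probe sets did. They were picked for their likeness to genes chosen on this contrast, so nothing is read from these counts.

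The 4 genes lie at separate places in the genome, on 4 chromosomes by their locus tags. The nearest protein-coding genes on either side with a single-gene probe set, by their order in RefSeq's TAIR10.1 annotation, gave 8 genes, of which 0 passed in limma, with 1 at an unadjusted p under 0.05. That gene was AT5G13200, 4 genes from SAG29, at 0.96 (SE 0.19, adjusted p 0.353), with groups that did not overlap. The other 7 had groups that overlapped. On either side of SWEET17, DI21 was at -0.03 and AT4G15930 at -0.07, and beside SWEET1, AT1G21440 was at 0.07 and AT1G21480 at -0.26. Beside SWEET11, AT3G48710 was at -0.15 and AT3G48760 at 0.01, and on the other side of SAG29 AT5G13140 was at -0.07.

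**Figure D4:**
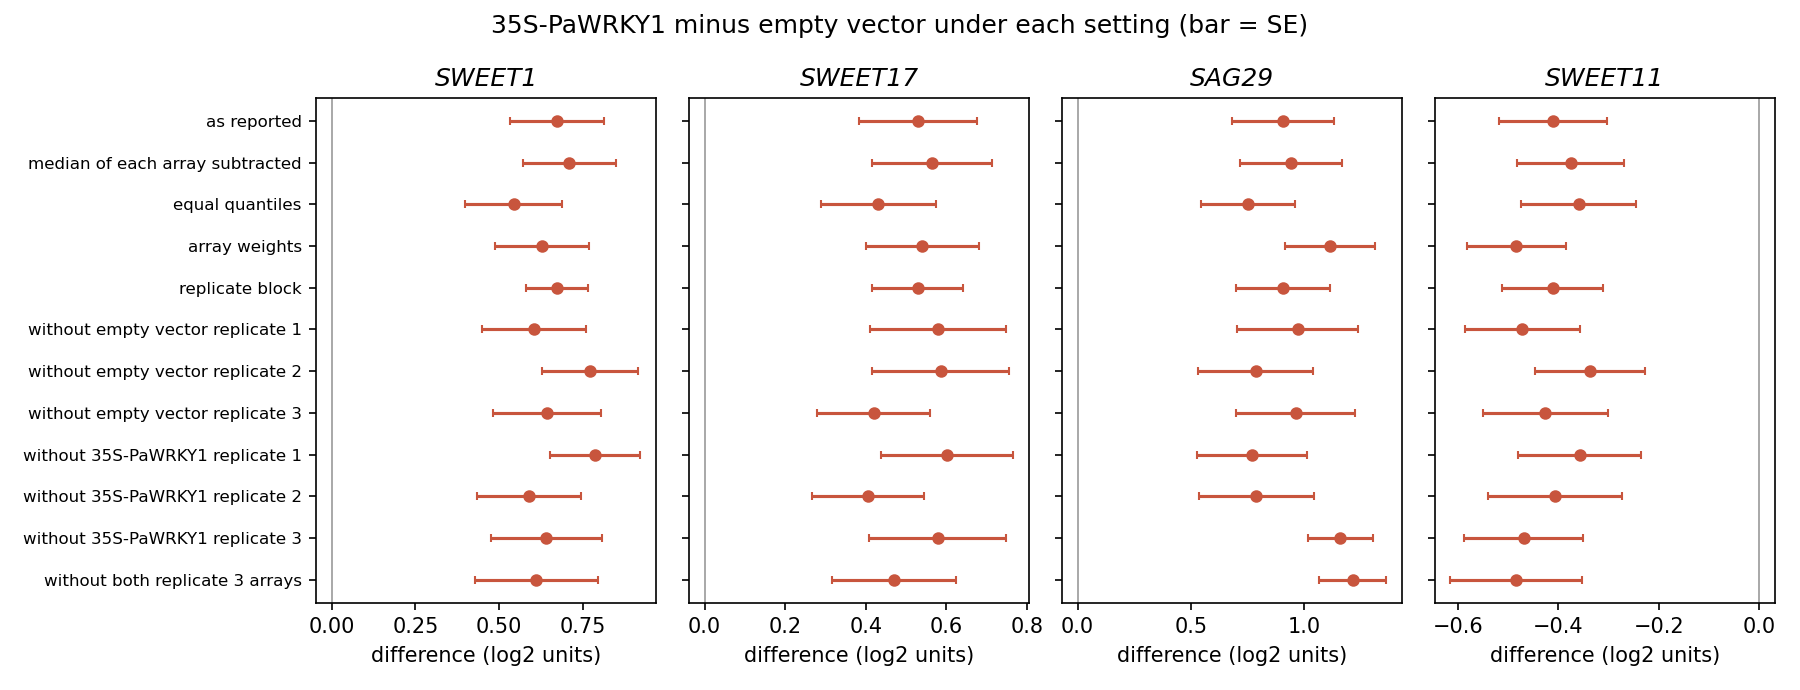
Difference of 35S-PaWRKY1 from empty vector in log2 units, with bars of 1 SE, for the 4 genes as reported and under each other setting; the axes differ between panels. Each gene stays on its side of 0 throughout, which was fixed in advance where arrays were left out or weighted, since the groups do not overlap. SAG29 has the widest range with single arrays left out, from 0.77 to 1.16.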

How the data were processed

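The deposited log2 values of 6 arrays were used as the authors gave them. Per the submitters' processing notes, MAS5 and RMA were used, with no version or role given. The log base, direction and scaling were not given in the sources used here. A base of 2, and higher for more transcript, follow the convention of RMA. Tested on the file, the largest absolute control mean was 1.3e-06, and array medians ran from -0.04642 to 0.01369. Of 22810 probe sets, 64 control probe sets were left out. In the platform annotation 13513 of the others had 1 gene, 503 several and 8730 none given, and 29 single-gene entries had no match in RefSeq's TAIR10.1 table.

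Two-sided tests used limma 3.58.1 (lmFit, eBayes; R 4.3.3). P-values were adjusted by Benjamini-Hochberg over 22746 probe sets, at a threshold of 0.05, and each SE comes from this fit. The fit was tested on simulated data whose known differences were larger than those of the members, with noise independent between arrays. That run does not reach differences of the members' size. Figures used matplotlib 3.10.9 in Python 3.11.15.

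The members and the 11 lists were chosen with earlier results of these data known. By rule, the text names the members, up to 8 matched genes of each list and the 5 nearest genes of each member; some listed genes the rule allows appear only in counts. Chromosomal neighbours were added later. After group means were subtracted, arrays of the same number correlated by 0.314, 0.194 and 0.453. All exceed 0.1, so the numbers may pair the samples, on the data's evidence alone. Printed SE and p-values are from the fit without this block unless stated.

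Alternatives were median centring, equal quantiles, array weights, a block for the replicate number, leaving out each array, an adjusted p under 0.01 and a difference of at least 1. Leaving out both replicate 3 arrays was chosen after seeing the data.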

Additional observations from a re-analysis of the deposited data

How the results depend on the processing

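The differences of the 4 genes kept their sign under every setting run, and none moved by more than the SD between replicates. Where arrays were left out, the sign was fixed in advance, since the groups of all 4 genes do not overlap. Leaving out a single array cannot move a difference by as much as that SD either. With array weights the sign was fixed in the same way, since a weighted group mean stays within the range of its arrays. Median centring could not turn a sign either: array medians ran from -0.04642 to 0.01369, beside a narrowest gap between groups of 0.18. Only equal quantiles could have turned a sign, and it did not. With single arrays left out, SWEET1 ran from 0.59 to 0.79, SWEET11 from -0.47 to -0.34, SWEET17 from 0.41 to 0.60 and SAG29 from 0.77 to 1.16. With the replicate number as a block the differences were the same by construction (0.67, -0.41, 0.53 and 0.91), with SE of 0.093, 0.10, 0.11 and 0.21, and the block changed no call among the 4 or the listed genes. Equal quantiles gave the lowest value of SAG29, 0.75, and array weights raised it to 1.12.

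The count of 7 probe sets past the threshold in limma was 6 with the replicate block, 11 with array weights, 1 at an adjusted p under 0.01, 0 with equal quantiles (1022 at an unadjusted p under 0.05) and 0 without both replicate 3 arrays (1914). With single arrays left out it was 0 to 1, the 0 being without 35S-PaWRKY1 replicate 2 (1062 at an unadjusted p under 0.05). The cause was not tested. The count of listed genes was 0 under all settings run, with 1 to 7 at an unadjusted p under 0.05. The filter on low values was not run, since the values hold no level, and signal over background is likewise unknown. With 3 arrays in each group, the precision of each value is limited by their number.

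Of 56 other genes named in the text, 0 passed the threshold under any setting that refitted the values, 39 kept their sign and 17 did not. STP3, STP8 and STP10 are not among the 56, and their sign under the other settings was not followed. The 39 include all 19 nearest genes, which were picked for values like those of the members. Their steady sign follows in part from that choice. All 17 that changed sign were listed genes or chromosomal neighbours. Of the 39, 14 moved by over 1.5 times with a single array left out, among them COR47 (0.34 to 0.87), TMT3 (-0.32 to -0.13), SAG101 (0.055 to 0.19) and ATGRIP (-0.41 to -0.19). The block narrowed the SE of SWEET4 from 0.18 to 0.098 and that of COR15A from 0.44 to 0.16. With single arrays left out, the ranges were -0.34 to 0.14 for SWEET2, -0.17 to 0.48 for SWEET3, -0.0032 to 0.050 for SWEET9, -0.22 to 0.048 for SWEET14, -0.25 to 0.0045 for TMT1, -0.016 to 0.084 for TMT2, -0.059 to 0.37 for ATSPS4F, -0.044 to 0.15 for WRKY6, -0.87 to 0.35 for WRKY53, -0.28 to 0.0044 for OPS and -0.11 to 0.088 for EXPA7. Among the neighbours they were -0.41 to 0.023 for AT1G21480, -0.10 to 0.072 for AT3G48760, -0.17 to 0.14 for DI21 and -0.14 to 0.0041 for AT5G13140. Without both replicate 3 arrays SWEET3 was at -0.18, SWEET14 at 0.15, TMT2 at -0.025, PYK10 at -0.0077, EXPA7 at 0.096, DI21 at 0.020 and AT4G15930 at 0.00035. Array weights gave -0.14 for SWEET3, -0.0093 for SWEET9 and -0.027 for AT3G48760, equal quantiles -0.011 for SWEET3, and median centring 0.0067 for DI21. The cause was not tested.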
